A study of Homo sapiens with 6 samples.

Results

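The immunoglobulin transcripts of a myeloma cell line were followed after knockdown of RRM1 or RRM2, the large and small subunits of ribonucleotide reductase, which supplies deoxyribonucleotides. The members are the probe sets with at least 1 platform annotation symbol beginning with IGH, IGK or IGL, IGHMBP2 excepted, together with JCHAIN, IGLL1 and IGLL5. This rule found 97 of 22277 probe sets, of which 49 belonged to the heavy chain, 20 to the kappa light chain, 27 to the lambda light chain and 1 to the joining chain. The rule used no measured value. The cells were NCI-H929, a human multiple myeloma line, collected 24 h after small interfering RNA (siRNA) was introduced by electroporation. There were 2 arrays with siRNA against RRM1 (siRRM1), 2 with siRNA against RRM2 (siRRM2) and 2 with a non-targeting scramble siRNA. All 3 groups share the line and the electroporation, and whether arrays of a group stem from separate cultures is not stated. Any p-value therefore measures only the spread between these arrays, which may be technical.

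An antibody is built from heavy chains and light chains of the kappa or lambda type, encoded in loci on chromosomes 14, 2 and 22. In a B cell, V, D and J segments are joined by recombination, and a plasma cell then transcribes 1 rearranged heavy and 1 light chain gene at very high rates and secretes the product. JCHAIN, on chromosome 4, links IgA and IgM units into polymers. Myeloma is a clonal plasma cell tumour, and its cells usually make a single antibody. NCI-H929 is described in cell line catalogues as producing IgA with kappa light chains.

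The probe sets name 24 immunoglobulin symbols, all of them matched in the RefSeq gene table. Of the 97 members, 44 name several immunoglobulin genes at once, and 47 name several genes of any kind. IGHG1 was named by 33 probe sets, IGHM by 32 and IGHA1 by 23, none of which named IGHA1 alone. IGKC was named by 18 and IGLC1 by 10. On Affymetrix arrays the suffix x_at marks a probe set with probes that can bind unrelated or similar sequences, and 58 of the members carry it. Members of a chain therefore share targets and are not independent measurements. The probe sequences were not used here, so which stretch of a transcript each probe set reads was not examined.

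RefSeq promoter records were found for JCHAIN and IGLL1, the surrogate light chain gene of early B cells. They are shown because both genes have a tested probe set here, one hybridizing strongly and the other near the array median. Each record runs 5′ to 3′ from 250 bases before to 50 bases after the gene's start in GRCh38.p14, on the minus strand. JCHAIN lies at chr4:70666459-70666758 and IGLL1 at chr22:23580241-23580540. Capitals mark the E-box CANNTG, the core motif bound by E proteins such as TCF3.
JCHAIN: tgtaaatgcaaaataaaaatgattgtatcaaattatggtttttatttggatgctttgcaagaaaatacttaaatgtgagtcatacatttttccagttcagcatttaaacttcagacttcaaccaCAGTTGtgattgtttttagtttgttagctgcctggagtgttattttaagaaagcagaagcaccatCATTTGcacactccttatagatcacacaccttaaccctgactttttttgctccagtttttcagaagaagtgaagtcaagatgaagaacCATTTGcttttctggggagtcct
IGLL1: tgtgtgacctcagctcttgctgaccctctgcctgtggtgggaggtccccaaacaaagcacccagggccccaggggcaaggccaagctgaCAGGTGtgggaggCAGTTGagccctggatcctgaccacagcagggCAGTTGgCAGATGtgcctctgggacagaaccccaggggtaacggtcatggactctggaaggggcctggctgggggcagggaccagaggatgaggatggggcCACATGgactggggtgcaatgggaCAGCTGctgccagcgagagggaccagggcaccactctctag
The E-box occurred 3 times in the JCHAIN window and 6 times in the IGLL1 window, and 68.7% of 35116 promoters of the same length held it. The octamer ATTTGCAT, the Oct-binding element of V gene promoters, was searched on both strands and matched 0 times in either window, against 1.77% of all promoters. The motif TATAAA matched 0 times in either window, against 11.5% of all promoters. The E-box reads alike on both strands in these letters, no octamer or TATAAA match overlapped it, and a missing match says only that these letters are absent from the window.

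Values are the deposited log2 signals, so a difference of 1 is a doubling. Array medians lay between 6.11 and 6.16 and the highest signals between 14.39 and 14.42. Each siRNA lowered its target. RRM1 (201477_s_at) was at 8.93 and 7.99 in siRRM1 and at 11.06 and 11.11 in scramble (limma adjusted p = 0.00288). RRM2 (209773_s_at) was at 9.59 and 10.12 in siRRM2 and at 12.51 and 12.59 in scramble (adjusted p = 0.00216). The RRM2 probe set with the higher mean, 201890_at, fell less. It was at 10.54 and 11.44 in siRRM2 and at 12.78 and 12.78 in scramble (limma adjusted p = 0.0358). All 9 plasma cell markers passed the filter, with means from 9.04 for PRDM1 to 13.15 for TNFRSF17, the receptor BCMA. Of 6 mature B cell markers with a probe set, only CD22 passed, at a mean of 5.86, while MS4A1 (CD20) averaged 4.49 and PAX5 averaged 4.77. As a measure of RNA quality, the 3′ minus 5′ difference of the ACTB control was 0.030 and 0.33 in siRRM1, 0.048 and 0.051 in siRRM2, and 0.34 and 0.15 in scramble. For ACTB the siRRM1 arrays overlap scramble and both siRRM2 arrays lie below scramble. The GAPDH control was -0.11 and -0.013 in siRRM1, -0.102 and -0.102 in siRRM2, and -0.017 and -0.093 in scramble, the same order. The ISGF3A control was 2.78 and 3.57 in siRRM1, 2.80 and 3.24 in siRRM2, and 2.87 and 3.03 in scramble. There both knockdowns overlap scramble. The part of RNA quality in the results below was not tested.

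Signals of different probe sets depend on their probes, so differences in level between members are read here as signal and not as transcript amount. A probe set was tested when its mean over the 6 arrays was at least 5.44, which is the 40th percentile over the whole table. By this measure 33 of the 97 members were tested, 12 heavy, 10 kappa, 10 lambda and the joining chain. The other 64 were below the filter, and their single values ran from 2.62 to 5.74. Just below the filter were 217258_x_at (IGLV1-44, mean 5.43) and 211835_at (IGKC, 5.43), and just above it were 217198_x_at (5.45) and 214916_x_at (5.46), which name several heavy chain genes.

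**Figure D1:**
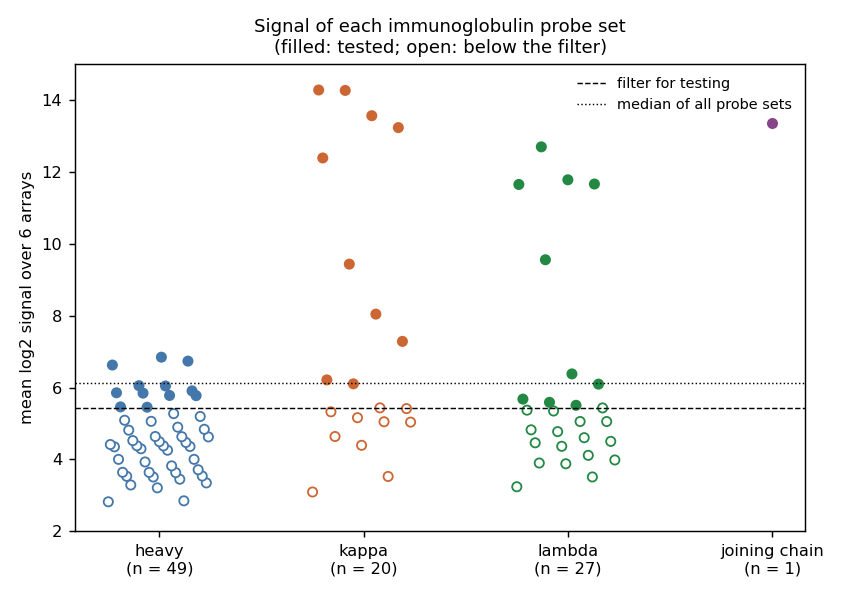
Mean log2 signal over the 6 arrays of each immunoglobulin probe set, by chain, with filled points for the 33 tested and open points for the 64 below the filter (dashed line at 5.44). The kappa and lambda chains each have a set of points above 9, while the heavy chain points end at 6.84.

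The members fell into a strongly hybridizing set and a weak remainder. A mean of at least 9, chosen after the values were seen, held for 12 members, 6 kappa, 5 lambda and JCHAIN, and the next highest was the IGKC probe set 216207_x_at at 8.04. Of the 12, 11 were x_at probe sets, and the exception was JCHAIN. The set held 0 of the 49 heavy chain probe sets, whose means ran from 2.82 to 6.84. The other 14 kappa members had means from 3.10 to 8.04 and the other 22 lambda members from 3.24 to 6.38. Strong signal was therefore present on probe sets of both light chain types, and each of these light chain probe sets can bind more than 1 sequence.

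Of the 23 probe sets that name IGHA1, 4 passed the filter, and the highest mean was 6.05 (211635_x_at, which also names 6 other constant genes). The pair annotated to IGHA1, IGHA2 and IGH only was 216318_at and 217022_s_at. The first read 5.86 and 5.82 in siRRM1, 5.79 and 5.68 in siRRM2, and 5.73 and 5.77 in scramble. The second, below the filter, read 4.80 and 5.05 in siRRM1, 5.16 and 5.15 in siRRM2, and 4.91 and 4.31 in scramble. Both stayed under the median of all probe sets, 6.15. No probe set naming IGHG1, IGHG2, IGHG3, IGHG4 or IGHD exceeded a mean of 6.05, and those naming IGHM reached 6.62 (215949_x_at).

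Knockdown of the large subunit changed no tested immunoglobulin probe set past the threshold in the main fit, which did not pair arrays by replicate number. Under limma 0 of 33 tested members were called in siRRM1 against scramble, where a call needs a Benjamini-Hochberg adjusted p under 0.05 over all 13366 probe sets tested, and 1 had an unadjusted p under 0.05. Of all probe sets tested, 12.1% were called and 29.9% had an unadjusted p under 0.05 in this comparison. Log2 differences of the members ran from -0.27 to 0.32, with 17 above 0 and 16 below, and a median of 0.0071 beside -0.021 for all probe sets tested. The median standard error (SE) was 0.11 for the members and 0.11 for all probe sets tested. The lowest adjusted p was 0.145, for 217469_at (IGH).

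In the same limma fit 0 of 33 members were called in siRRM2 against scramble, where 1.32% of all probe sets were called. By limma 1 member had an unadjusted p under 0.05, beside 18.8% of all probe sets. Log2 differences ran from -0.19 to 0.29, 21 above 0 and 12 below, with a median of 0.086 beside -0.011 for all probe sets tested. Between siRRM1 and siRRM2, 0 of 33 members were called by limma and 1 had an unadjusted p under 0.05, beside 0.0374% and 8.63% of all probe sets. These differences ran from -0.31 to 0.23, with a median of 0.0056 beside -0.015 for all probe sets tested. By chain, the median difference in siRRM1 was 0.018 over 12 heavy, -0.013 over 10 kappa and 0.16 over 10 lambda probe sets. In siRRM2 it was 0.033 for heavy, 0.12 for kappa and 0.11 for lambda. The comparisons share arrays, so their values are given side by side and not as support for each other.

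Over the 33 tested members and 3 comparisons, the 95% intervals give the precision of the differences as measured. They do not cover the 64 members below the filter. The highest upper bound was a log2 difference of 0.67, a rise of 1.59-fold, and the lowest lower bound was -0.59, a fall of 1.503-fold. The plot of differences with their intervals shows every tested member within these bounds.

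**Figure D2:**
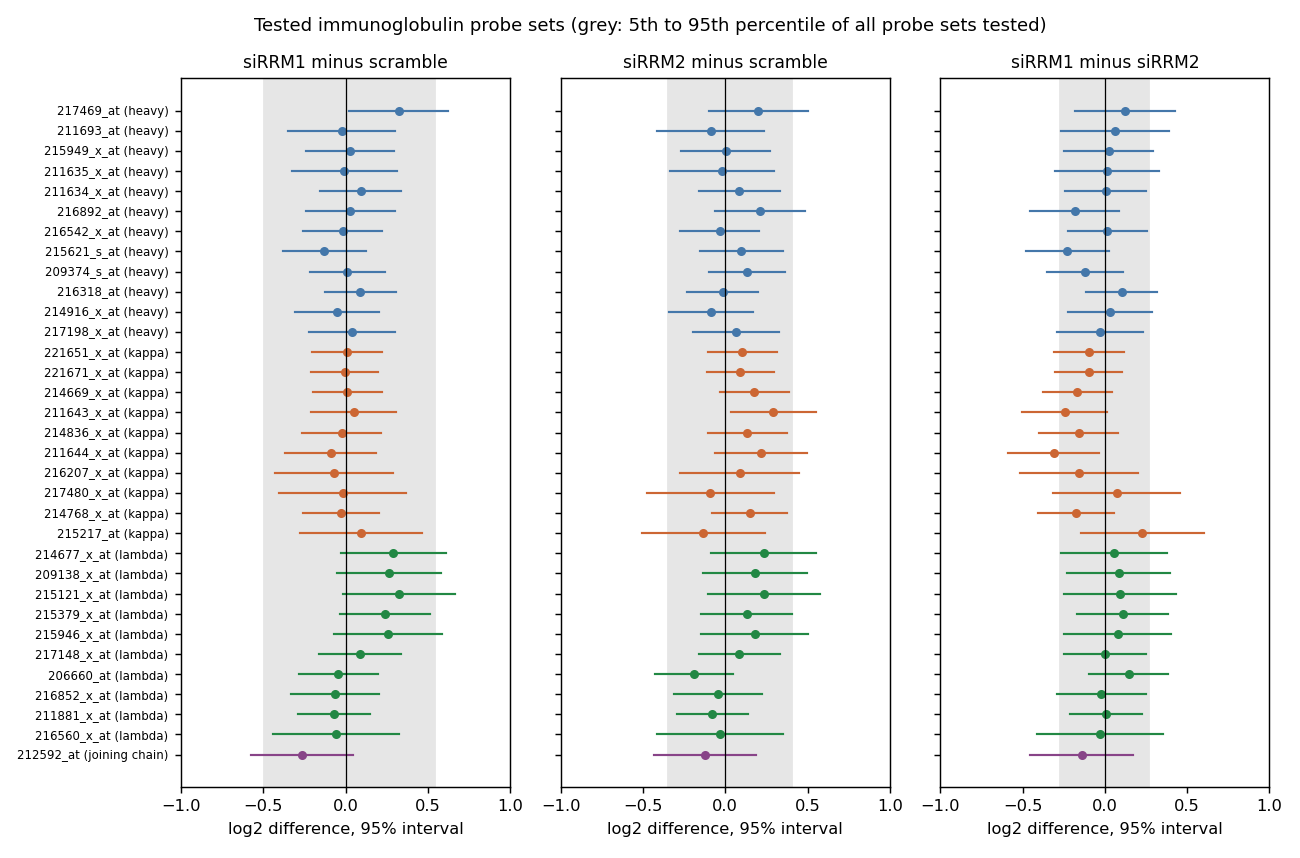
Log2 difference and 95% interval (limma) of each tested immunoglobulin probe set, in siRRM1 minus scramble, siRRM2 minus scramble and siRRM1 minus siRRM2, coloured by chain. The grey band spans the 5th to 95th percentile of all probe sets tested, and in the first panel it runs from -0.50 to 0.54 around members that lie between -0.27 and 0.32.

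For the 6 strong kappa probe sets the siRRM1 and scramble arrays overlapped. The probe set 221651_x_at (IGK and IGKC, the kappa constant region) read 14.22 and 14.26 in siRRM1, 14.38 and 14.30 in siRRM2, and 14.20 and 14.26 in scramble. Its values lay 0.03 to 0.19 below the highest signal of the same array, so a rise could be compressed there, which was not tested. Its log2 difference was 0.01 in siRRM1 (SE 0.09, 95% interval -0.20 to 0.22, limma adjusted p = 0.968) and 0.10 in siRRM2 (interval -0.11 to 0.32, adjusted p = 0.581).

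The IGKC probe set 214669_x_at read 13.47 and 13.54 in siRRM1, 13.70 and 13.64 in siRRM2, and 13.47 and 13.52 in scramble. Its difference was 0.01 in siRRM1 (interval -0.20 to 0.22) and 0.18 in siRRM2 (interval -0.03 to 0.39, limma adjusted p = 0.346). The siRRM1 and scramble arrays overlap, and both siRRM2 arrays lie above them. The probe set 211643_x_at (IGK and IGKC) read 13.12 and 13.20 in siRRM1, 13.49 and 13.32 in siRRM2, and 13.02 and 13.21 in scramble. It had the highest log2 difference of the 33 tested members in siRRM2, 0.29 (SE 0.11, interval 0.03 to 0.55), and the only unadjusted p under 0.05 there, with a limma adjusted p of 0.219.

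The remaining strong kappa probe sets were also highest on siRRM2 replicate 1. The probe set 221671_x_at (IGK and IGKC) read 14.21 and 14.24 in siRRM1, 14.35 and 14.29 in siRRM2, and 14.21 and 14.25 in scramble. The probe set 214836_x_at read 12.30 and 12.34 in siRRM1, 12.58 and 12.38 in siRRM2, and 12.37 and 12.32 in scramble. The weakest of the set, 211644_x_at, read 9.23 and 9.36 in siRRM1, 9.68 and 9.53 in siRRM2, and 9.26 and 9.51 in scramble. In all 6 strong kappa probe sets both siRRM2 arrays exceeded both scramble arrays and both siRRM1 arrays, and siRRM2 replicate 1 was the highest array. Over all probe sets tested, siRRM2 lay above scramble without overlap in 25.9%, and siRRM1 lay below siRRM2 without overlap in 21.2%.

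Differences of these 6 against scramble ran from -0.09 to 0.05 in siRRM1, with an upper bound of at most 0.31 (1.24-fold). In siRRM2 they ran from 0.09 to 0.29, with adjusted p from 0.219 to 0.624. Between siRRM1 and siRRM2 they ran from -0.31 to -0.10, with adjusted p from 0.532 to 0.828. The 6 share targets, so their agreement is not a count of 6 independent results.

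Of the other 4 tested kappa probe sets, 214768_x_at (IGKC) also had both siRRM2 arrays above both scramble arrays. It read 6.12 and 6.16 in siRRM1, 6.40 and 6.24 in siRRM2, and 6.13 and 6.22 in scramble, a difference of 0.15 in siRRM2 (limma adjusted p = 0.466). The IGKC probe set 216207_x_at read 7.87 and 8.05 in siRRM1, 8.20 and 8.04 in siRRM2, and 7.82 and 8.25 in scramble, and the 3 groups overlap. The IGKC probe set 215217_at, which lacks the x_at suffix, read 6.11 and 6.30 in siRRM1, 6.17 and 5.80 in siRRM2, and 5.96 and 6.27 in scramble. Its difference was 0.09 in siRRM1 and -0.13 in siRRM2 (limma adjusted p = 0.743 and 0.700), the opposite side of 0 to the strong kappa probe sets in siRRM2. The probe set 217480_x_at, annotated to an orphon kappa V segment outside the main locus, had differences of -0.02 and -0.09.

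Of 10 tested lambda probe sets, 6 had a difference above 0 in siRRM1 and 4 below, and none passed the test. The 5 strong ones, a set chosen after their values were seen, were all above 0. The probe set 214677_x_at (IGLC1, a lambda constant region) read 12.89 and 12.72 in siRRM1, 12.93 and 12.57 in siRRM2, and 12.57 and 12.46 in scramble. Both siRRM1 arrays lie above both scramble arrays, while siRRM2 replicate 2 is level with scramble replicate 1. Its difference was 0.29 in siRRM1 (SE 0.14, interval -0.03 to 0.61, limma adjusted p = 0.204) and 0.23 in siRRM2 (adjusted p = 0.408).

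The probe set 215121_x_at, which names the variable segment IGLV1-44 and IGLC1, read 11.88 and 11.71 in siRRM1, 11.91 and 11.50 in siRRM2, and 11.49 and 11.45 in scramble. At 0.32 in siRRM1 (interval -0.02 to 0.67, limma adjusted p = 0.183) it had the largest difference of the 33 tested members there, a factor of 1.25. Its siRRM2 difference of 0.23 was 0.03 without siRRM2 replicate 1 and 0.44 without siRRM2 replicate 2. IGLL3P (215946_x_at), a transcribed pseudogene of the lambda-like family, read 9.73 and 9.60 in siRRM1, 9.77 and 9.40 in siRRM2, and 9.48 and 9.33 in scramble.

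All 5 strong lambda probe sets, which also include 209138_x_at (IGLC1) and 215379_x_at (IGLV1-44), exceeded scramble on both siRRM1 arrays. Over all probe sets tested, siRRM1 lay above scramble without overlap in 26.1%. Their differences ran from 0.24 to 0.32 in siRRM1 (adjusted p 0.183 to 0.262) and from 0.13 to 0.23 in siRRM2 (adjusted p 0.408 to 0.599). In siRRM2 only 215121_x_at did not overlap scramble, and its siRRM2 replicate 2 value of 11.50 stood just above the 11.49 of scramble replicate 1. In each of the 5 the array numbered 1 exceeded the array numbered 2 in all 3 groups, and scramble replicate 2 was the lowest array.

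**Figure D3:**
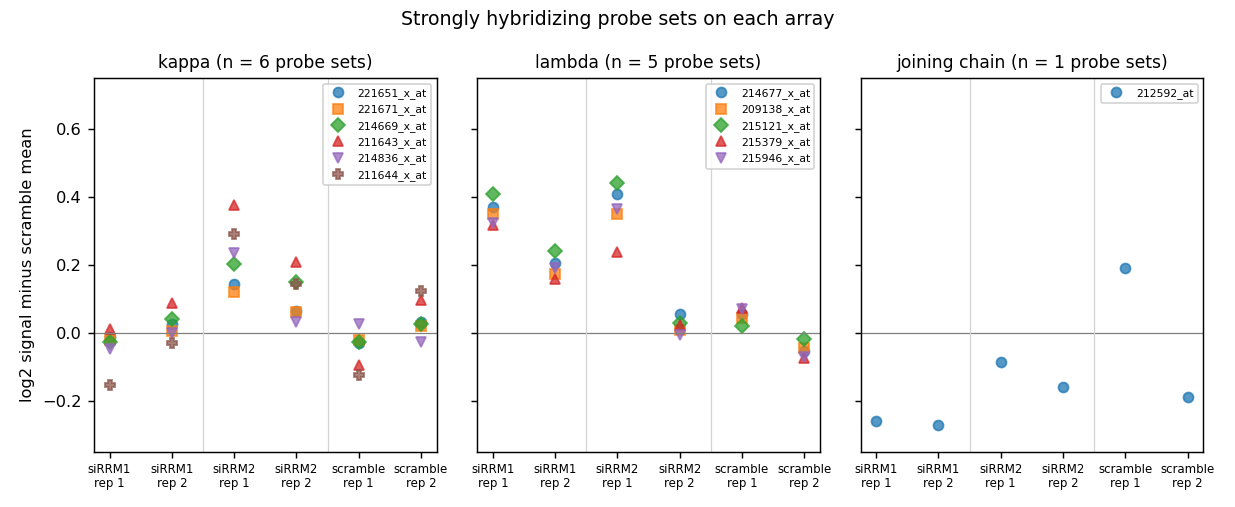
Log2 signal minus the scramble mean on each array (x axis) for the 12 strongly hybridizing probe sets, with symbols for probe sets. The 6 kappa probe sets are highest on siRRM2 replicate 1, the 5 lambda probe sets lie above 0 on both siRRM1 arrays, and JCHAIN is above 0 on scramble replicate 1 only.

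The lambda and kappa sets differed in which arrays were high. The mean of the 5 lambda probe sets minus the mean of the 6 kappa probe sets was -1.10 and -1.32 on the siRRM1 arrays, -1.36 and -1.58 on the siRRM2 arrays, and -1.39 and -1.59 on the scramble arrays. The level of this difference depends on the probes, and only its change between arrays can be read. Both siRRM1 arrays lie above the other arrays, and siRRM2 overlaps scramble. No test is given because the sets were chosen after their values were seen.

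The other tested lambda members had means of at most 6.38. The 217148_x_at probe set (IGLJ3 and IGLC1) read 6.42 and 6.40 in siRRM1, 6.49 and 6.33 in siRRM2, and 6.23 and 6.41 in scramble. The IGLC1 probe set 216560_x_at read 5.25 and 5.70 in siRRM1, 5.57 and 5.44 in siRRM2, and 5.41 and 5.66 in scramble. The siRRM1 and scramble arrays overlap in both, and for 216560_x_at the siRRM1 arrays lie on either side of the scramble values. The IGLJ3 probe set 211881_x_at was lower than scramble without overlap in both knockdowns, with differences of -0.069 in siRRM1 and -0.078 in siRRM2 (limma adjusted p = 0.666 and 0.701). Of the 6 probe sets that name IGLC1 alone, 214677_x_at and 209138_x_at are in the strong set, and 215214_at (mean 5.35), 217138_x_at (4.77) and 211655_at (3.24) were below the filter. So was 216412_x_at (5.05), which also names CKAP2.

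IGLL1 (206660_at) encodes part of the surrogate light chain, which pairs with the heavy chain before a light chain gene is rearranged. It read 6.099 and 6.16 in siRRM1, 5.89 and 6.08 in siRRM2, and 6.14 and 6.21 in scramble. Its difference of -0.19 in siRRM2 was the lowest of the 33 tested members in that comparison (SE 0.10, interval -0.43 to 0.05, limma adjusted p = 0.366). Both siRRM2 arrays were below both scramble arrays, as for 28.8% of all probe sets tested. IGLL5 is an immunoglobulin lambda-like gene whose span contains IGLC1 in the RefSeq table. Its probe sets were all below the filter, with means of 5.05 (217235_x_at), 4.503 (216851_at, shared with IGLJ3 and IGLV3-19) and 3.88 (216566_at).

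JCHAIN was the only member whose strong signal came from a probe set without the x_at suffix. It read 13.22 and 13.20 in siRRM1, 13.39 and 13.31 in siRRM2, and 13.66 and 13.28 in scramble. Both siRRM1 arrays were below both scramble arrays, as for 31.3% of all probe sets tested, and siRRM2 overlapped scramble. The difference was -0.27 in siRRM1 (SE 0.13, interval -0.58 to 0.04, limma adjusted p = 0.226), the lowest of the 33 tested members, and -0.12 in siRRM2 (adjusted p = 0.665). Scramble replicate 1 set this value. Without it the siRRM1 difference was -0.08 and the siRRM2 difference 0.07, and without scramble replicate 2 they were -0.46 and -0.31.

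Among the 12 tested heavy chain probe sets, 0 were called in any comparison by limma. The 217469_at probe set (IGH) read 6.91 and 7.08 in siRRM1, 6.76 and 6.98 in siRRM2, and 6.55 and 6.79 in scramble. Its siRRM1 difference of 0.32 (SE 0.13, interval 0.02 to 0.62) had the only unadjusted p under 0.05 among members in that comparison and a limma adjusted p of 0.145. The other IGH probe set that was tested, 211693_at, read 6.54 and 6.95 in siRRM1, 6.64 and 6.72 in siRRM2, and 6.75 and 6.79 in scramble. There the siRRM1 arrays span the scramble values, with a difference of -0.03.

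Among IGHM probe sets, 215949_x_at read 6.58 and 6.71 in siRRM1, 6.61 and 6.63 in siRRM2, and 6.48 and 6.75 in scramble. The IGHM probe set 209374_s_at read 5.71 and 5.78 in siRRM1, 5.94 and 5.79 in siRRM2, and 5.69 and 5.78 in scramble. Groups overlap between siRRM1 and scramble in both, and both siRRM2 values of 209374_s_at exceed scramble. IGHD (215621_s_at) read 5.67 and 5.78 in siRRM1, 6.01 and 5.89 in siRRM2, and 5.76 and 5.95 in scramble. IGHG1 (216892_at) read 5.77 and 5.94 in siRRM1, 6.12 and 5.95 in siRRM2, and 5.74 and 5.91 in scramble, a difference of 0.21 in siRRM2 (limma adjusted p = 0.377).

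Counted over the 33 tested members, siRRM1 and scramble did not overlap in 9, or 27.3%, beside 57.4% of all probe sets tested. In siRRM2 against scramble the count was 13, or 39.4%, beside 54.7%. Between siRRM1 and siRRM2 it was 13, also 39.4%, beside 38.5%. Pooled over groups, the SD between replicate arrays had a median of 0.12 over the tested members and 0.11 over all probe sets tested. Among the 64 members below the filter, mean differences ran from -0.15 to 0.48 in siRRM1, where IGHM 216491_x_at was highest, and from -0.26 to 0.54 in siRRM2, where 217022_s_at was highest.

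Constant regions decide the antibody class, and most of their probe sets stayed weak. Tested heavy constant members not yet described were 211634_x_at (IGHM), at 5.87 to 6.10 over the 6 arrays, and 216542_x_at (IGHM, IGHG1 and IGHA1), at 5.74 to 5.93. Below the filter, for probe sets whose only immunoglobulin symbol is IGHM, IGHG1 or IGHD, the highest was taken for each gene. It was 216491_x_at (mean 4.63) for IGHM, 216706_x_at (5.20, also naming SKAP2) for IGHG1 and 214973_x_at (4.63) for IGHD. The others that name IGHM, IGHG1 or IGHD alone were 212827_at (4.26) for IGHM, 217369_at (4.84), 217222_at (4.64) and 215721_at (4.49) for IGHG1, and 213674_x_at (4.38) and 222285_at (4.38) for IGHD. Of those that name several constant genes, 211641_x_at, 216557_x_at, 217169_at, 217217_at, 211430_s_at, 216541_x_at and 211649_x_at had means from 4.003 to 4.52. The lowest such means, from 3.29 to 3.93, belonged to 211640_x_at, 211648_at, 216558_x_at, 211647_x_at, 211632_at, 211636_at and 217360_x_at. IGKC alone was named below the filter by 214777_at (5.41), 211146_at (4.64) and 216517_at (4.39), beside 211835_at.

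Genes that regulate, process, fold and bind immunoglobulin were read from lists drawn up from general knowledge, with earlier results of these data known. Of 14 tested transcription factors, 0 passed in either knockdown under limma, beside 12.1% of all probe sets in siRRM1 and 1.32% in siRRM2, with median differences of 0.10 in siRRM1 and 0.10 in siRRM2. IRF4, a regulator of plasma cell identity, read 10.76 and 10.40 in siRRM1, 11.30 and 10.99 in siRRM2, and 11.38 and 11.04 in scramble, a difference of -0.63 in siRRM1 (SE 0.17, limma adjusted p = 0.0583). It passed in 6 of 14 alternatives, with adjusted p between 0.0036 and 0.253 over all of them, and its siRRM2 difference was -0.06. The other tested IRF4 probe set, 216986_s_at, had differences of -0.49 in siRRM1 (limma adjusted p = 0.253) and 0.12 in siRRM2. MEF2C, a factor of B cell development, had a difference of 0.28 in siRRM1 (adjusted p = 0.0773). The factors XBP1 (-0.17), POU2AF1 (-0.18) and PRDM1 (-0.11) had differences in siRRM1 with adjusted p from 0.213 to 0.483. On the other side of 0 in siRRM1 were TCF4 (0.43, limma adjusted p = 0.0903) and IKZF3 (0.44, adjusted p = 0.152). In siRRM2 the smallest p belonged to IKZF3 (difference 0.47, adjusted p = 0.222) and BACH2 (0.41, adjusted p = 0.309).

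Of 25 tested genes of folding and secretion, 1 fell and 0 rose in siRRM1 under limma, beside 5.72% of all probe sets called lower, and 0 passed in siRRM2. The list's median difference was -0.13 in siRRM1 and -0.05 in siRRM2. ERO1A, an oxidase that supports disulfide bonding, read 7.86 and 7.55 in siRRM1, 7.95 and 8.11 in siRRM2, and 8.22 and 8.26 in scramble. In siRRM1 ERO1A fell by 0.53 (log2, SE 0.13, limma adjusted p = 0.0367). Leaving out any array except siRRM1 replicate 1 ended the call (adjusted p 0.0648 to 0.142). The list's count was 3 lower without siRRM1 replicate 1, 3 lower with arrays centred on their medians, and 1 higher and 4 lower with a variance trend. In siRRM2 the smallest p belonged to HERPUD1 (0.42, adjusted p = 0.159) and DNAJC3 (-0.42, adjusted p = 0.269).

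Of 8 tested genes of messenger processing, recombination and hypermutation, 1 rose in siRRM1 and 0 in siRRM2, beside 6.39% and 1.11% of all probe sets called higher. EXO1, an exonuclease of mismatch repair, rose by 0.48 in siRRM1 (limma adjusted p = 0.0295). It was not called without scramble replicate 1 (adjusted p = 0.136), scramble replicate 2 (adjusted p = 0.0846) or siRRM1 replicate 2 (adjusted p = 0.129). ELL2, an elongation factor that favours the secreted form of heavy chain RNA, had a difference of -0.33 in siRRM1 (adjusted p = 0.212). Its other tested probe set, 214445_at, had a difference of -0.08 in siRRM1 (limma adjusted p = 0.702). PTBP1 (-0.20) and CSTF2 (-0.21) had the smallest p in siRRM2, with adjusted p of 0.320 and 0.336. RAG1, RAG2 and DNTT, which act in V(D)J recombination, were below the filter.

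Genes that bind or signal for immunoglobulin included called rises. Of 5 tested receptor partners, 3 rose in siRRM1 and 2 in siRRM2, beside 6.39% and 1.11% of all probe sets called higher. Both counts include FCGR2B, which entered the test only through the knockdown arrays, so no excess over these shares can be read from them. FCGR2B, the inhibitory Fc receptor for IgG, read 7.22 and 7.65 in siRRM1, 6.69 and 7.53 in siRRM2, and 5.37 and 5.38 in scramble. It rose by 2.06 in siRRM1 (SE 0.26, limma adjusted p = 0.00598) and by 1.74 in siRRM2 (adjusted p = 0.0364). Its scramble values lay below the filter of 5.44, so it was tested only through the knockdown arrays and the size of its rise is uncertain. Near-identical FCGR2 genes may share its probes.

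FCMR, the Fc receptor for IgM, rose on both of its probe sets. The first, 221601_s_at, read 9.01 and 9.46 in siRRM1, 8.71 and 8.90 in siRRM2, and 7.80 and 7.88 in scramble. It rose by 1.39 in siRRM1 (SE 0.16, limma adjusted p = 0.00401) and by 0.97 in siRRM2 (adjusted p = 0.0427). The second, 221602_s_at, rose by 1.10 (adjusted p = 0.00601) and by 0.87 (adjusted p = 0.0427). In siRRM2 the FCMR call of 221601_s_at ended when any single scramble or siRRM2 array was left out (adjusted p 0.111 to 0.208). The FCGR2B call there ended when either scramble array or siRRM2 replicate 2 was left out (adjusted p 0.110 to 0.144). Between the knockdowns FCMR differed by 0.43 (adjusted p = 0.518) and FCGR2B by 0.32 (adjusted p = 0.800), and 0 genes of the 4 lists were called there. The smallest p of the other lists between the knockdowns belonged to IRF4 (-0.57), POU2AF1 (-0.26), EXO1 (0.30), MSH6 (0.16), HYOU1 (-0.25) and ERO1A (-0.32), with adjusted p from 0.427 to 0.666.

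CD79B, the signalling partner of surface immunoglobulin, rose by 0.48 in siRRM1 (limma adjusted p = 0.0479). Leaving out any array except scramble replicate 2 ended that call (adjusted p 0.0831 to 0.217), as did testing without the filter (0.0596) or centring arrays on their medians (0.0593). In siRRM2 its difference was 0.45 (adjusted p = 0.129). Its partner CD79A averaged 5.12, below the filter. Some markers of other leukocytes were called higher, and others lay below the filter. Of all probe sets tested, 6.39% were called higher in siRRM1 and 1.11% in siRRM2. Of 6 myeloid markers, S100A8, S100A9 and CSF1R were tested and rose in siRRM1, while CD14 (4.30), LYZ (3.11) and FCN1 (4.12) stayed below the filter. In siRRM2 0 of the 3 tested myeloid markers were called. S100A8 was below the filter in scramble (4.45 and 4.44) and was tested only through the knockdown arrays. The mean level of the 6 was 5.68 and 6.32 in siRRM1, 5.16 and 5.68 in siRRM2, and 4.56 and 4.62 in scramble. Differences in siRRM1 were 4.23 for S100A8, 2.55 for S100A9 and 1.50 for CSF1R. CD14 read 4.26 and 4.39 in siRRM1 against 4.33 and 4.32 in scramble. FCN1 read 4.03 and 4.16 against 4.11 and 4.03, and LYZ read 3.26 and 3.18 against 3.01 and 3.11. The part of other cells in these rises was not tested. Of 5 natural killer markers, GNLY and NKG7 rose in siRRM1 and GNLY rose in siRRM2 (1.68, limma adjusted p = 0.0153). NCAM1 had a difference of -0.34 in siRRM1, and KLRD1 and KLRB1 were below the filter. NKG7 was below it in scramble (4.34 and 5.15), so it was tested only through the knockdown arrays. Of 7 T cell markers on the array, 2 were tested. TRBC1 rose in siRRM1 (1.09, limma adjusted p = 0.00333) and was not called in siRRM2 (0.64, adjusted p = 0.0542). Its signal was already 10.15 and 10.08 in scramble, well above the filter, at 1 of the gene's 3 probe sets. CD3E had a difference of 0.13 in siRRM1 (adjusted p = 0.565), and CD3D, CD3G, CD2, CD8A and LCK stayed below the filter.

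**Figure D4:**
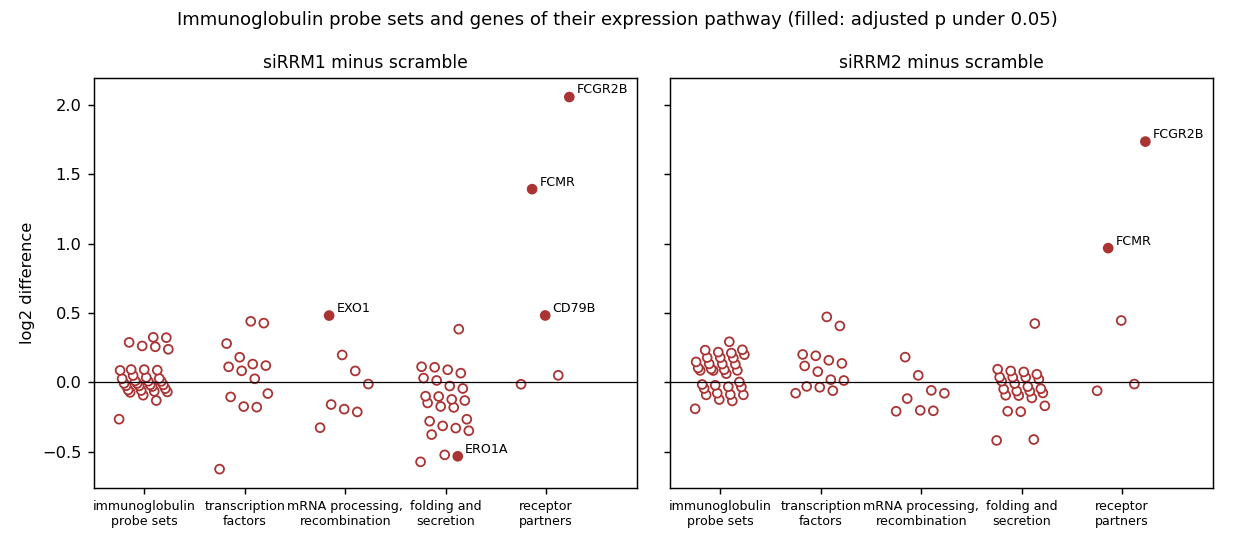
Log2 difference of the 33 tested immunoglobulin probe sets and of the tested genes of each pathway list, in siRRM1 minus scramble (left) and siRRM2 minus scramble (right), with filled points for a limma adjusted p under 0.05. FCGR2B stands highest at 2.06 and 1.74, FCMR next at 1.39 and 0.97, and 0 immunoglobulin probe sets are filled.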

How the data were processed

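Gene expression was measured on 6 oligonucleotide arrays of biotin-labelled cRNA, per the labels' protocols. The authors deposited log2 signals for 22277 probe sets. The log base was read from the values, and no source used here states how signals were summarised and normalized. Names come from the platform's annotation table, in which 19070 have 1 symbol, 1043 several and 2164 none listed, and symbols were matched to RefSeq GRCh38.p14, used for names, chromosomes and promoter sequences.

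All 13366 probe sets whose mean reached the 40th percentile were fitted with limma 3.58.1 in R 4.3.3 (lmFit, eBayes) over the 6 arrays, with 3 residual and 4.30 prior degrees of freedom, two-sided, and Benjamini-Hochberg adjustment. Standard errors are those of the moderated fit. Summaries used Python 3.11.15. The fit was tested on simulated data. The number of arrays limits the precision.

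The members and lists were chosen with earlier results of these data known. Named members were all JCHAIN, IGLL1 and IGLL5 probe sets, those whose immunoglobulin symbols are constant genes only, and, in each comparison, the 3 with the smallest p, the 3 highest and the 3 lowest. Other strong members, the IGHA pair, 217480_x_at, 217148_x_at, 211693_at, 211881_x_at and the filter's neighbours were named after their values were seen. List genes were named by called status or smallest p, at the probe set with the highest mean. For RRM2 both probe sets are given. The genes XBP1, POU2AF1, PRDM1, TCF4, ELL2, CD79A and the markers, and the siRRM1 value of IKZF3, were added after seeing their values. Alternatives were other filters, scalings, variance moderation, arrays in the fit, a replicate block, 1 probe set per gene and leaving out each array.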

Additional observations from a re-analysis of the deposited data

Results flagged for a closer look

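In 4 of the 33 tested members both siRRM1 arrays lay on the opposite side of the scramble mean to both siRRM2 arrays (12.1%, beside 4.51% of the 13366 probe sets tested). The log2 differences from scramble were -0.092 in siRRM1 and 0.22 in siRRM2 for 211644_x_at (IGK and IGKC), -0.030 in siRRM1 and 0.15 in siRRM2 for 214768_x_at (IGKC), -0.024 in siRRM1 and 0.13 in siRRM2 for 214836_x_at (IGK and IGKC), and -0.13 in siRRM1 and 0.097 in siRRM2 for 215621_s_at (IGHD). The first 3 share the kappa target. The direct limma comparison of siRRM1 with siRRM2 gave 0 of these 4 an adjusted p under 0.05. The difference between the effects was not tested beyond that, and both effects share the scramble arrays. Groups of 2 arrays are too small for a search for outlying arrays.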

How the results depend on the processing

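The limma count of members called was 0 in all 3 comparisons and stayed 0 under 14 alternatives each, with the exception of 1 in siRRM1 against scramble with a replicate block, 217469_at (log2 0.32, adjusted p = 0.0405). Leaving out each array in turn gave counts of 0 to 0, with a lowest member adjusted p of 0.0752; where it left 1 array in a group, that array is assumed to vary like the others. Without the filter all 97 members were tested, and the lowest adjusted p was 0.051 in siRRM1. Members with an unadjusted limma p under 0.05 in siRRM1 numbered 1 of 33 in the main fit, 7 with a replicate block and 6 with a variance trend. Of all 13366 probe sets tested, 3991, 4673 and 4138 had such a p in these 3 fits. Of 768 values of named members under the alternatives, 721 moved by less than the SD between replicates, 46 moved by more and 1 became called.

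The number of all probe sets called was less stable. In siRRM1 against scramble it was 1619, with 2731 under a replicate block and 926 with the 4 arrays compared alone, and 386 to 2026 leaving out each array. It split into 854 higher and 765 lower, and into 746 and 1065 with each array centred on its median. In siRRM2 against scramble it was 176, with 352 under a variance trend, 704 under a replicate block and 6 to 140 leaving out each array. Between the knockdowns it was 5, with 3 under the stricter filter, 16 under a trend, 101 under a replicate block, 13 with 1 probe set per gene and 2 to 5 leaving out each array. The causes were not tested. The labels do not say that replicate numbers pair arrays. Deviations of same-numbered arrays from their group means correlated at r = 0.351 between siRRM1 and scramble, 0.360 between siRRM2 and scramble and 0.207 between siRRM1 and siRRM2, with 2 numbers per group.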
